A study of Rattus norvegicus with 16 samples.

Results

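Neurotrophic factors are secreted proteins that keep neurons alive and help axons grow, and Schwann cells, the glia of peripheral nerve, are a well known source of them after injury. The 8 ligand genes described here were taken by name, with no threshold on a measured value, and are 8 of the 31038 genes of the deposited tables. Gdnf, Artn and Nrtn belong to the GDNF family, Bdnf and Ntf3 are neurotrophins, and Cntf, Lif and Clcf1 are cytokines of the interleukin-6 family. The 16 rat sciatic nerve libraries form 8 groups of 2. Purified Schwann cells and whole nerve were each sampled from uncrushed nerves and, distal to the lesion, from nerves 3, 5 and 7 days post-crush, with the crush made at postnatal day 18 under isoflurane and with carprofen for analgesia. The age given for all 16 samples, uncrushed included, is postnatal day 18. With the crush made at that age, nerves after crush were collected 3, 5 or 7 days later. No uncrushed nerves of those later ages were sampled, so age and injury cannot be told apart. Uncrushed nerves had no sham operation. Schwann cells were purified by immunopanning, in which cells freed with collagenase and dispase pass over antibody-coated dishes. Dishes against CD45 and Thy1 first held back immune cells and fibroblasts, and an O4 dish then kept the Schwann cells. Whole nerve RNA was taken from tissue that was not dissociated. Each sample pooled at least 10 nerves, and where nothing says that the pools came from separate animals, p-values measure only the spread between these samples.

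Members of these families act through shared receptors. GDNF binds Gfra1, artemin binds Gfra3 and neurturin binds Gfra2, and each complex signals through the kinase Ret or, for GDNF, also through Ncam1. BDNF binds the kinase Ntrk2 and the product of Ntf3 binds Ntrk3, while all neurotrophins bind Ngfr. CNTF signals through Cntfr with Lifr and the common subunit Il6st, LIF needs only Lifr and Il6st, and CLCF1 uses the CNTF receptor. In uninjured nerve, Cntf is known as a product of myelinating Schwann cells.

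Depth, taken as the sum of expected counts, lay between 10555067 and 27562637 per library. The largest library was replicate 2 of Schwann cells on day 3, which also held more macrophage marker RNA (summed FPKM of 8 markers 18.3, against 3.62 to 10.6 in the other Schwann cell libraries) and mast cell marker RNA (3 markers, 12.5 against 0.440 to 3.19, and 164 to 325 in whole nerve). Their 1 tested marker, Cpa3, was called higher in Schwann cells on day 3, by 2.72 ± 0.637 on the log2 scale (edgeR adjusted p = 0.00541). The labelled cell type was checked with 10 Schwann cell markers, all of which were detected in every group. Summed FPKM of the 8 macrophage markers was 147 to 743 in whole nerve, that of 5 endothelial markers 0.600 to 4.09 in Schwann cells and 75.9 to 109 in whole nerve, and that of 6 fibroblast markers 242 to 576 and 3964 to 6012. FPKM, a fragment count scaled to transcript length and library total, is used below for levels. Differences were tested on expected counts with edgeR's quasi-likelihood test and called at a Benjamini-Hochberg adjusted p below 0.05. For any 1 gene the smallest p of an exact permutation test (two-sided, 2 libraries in each group) is 0.333, and the calls therefore rest on the spread shared across genes. In these bulk samples, fewer cells of a type and less RNA per cell cannot be told apart.

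Promoter sequences are shown for 3 ligands with different courses after crush: Gdnf, whose Schwann cell FPKM was highest on day 3, Bdnf, whose FPKM was higher on days 5 and 7 than on day 3, and Cntf, which fell. They are the 250 bases before the RefSeq start site in the assembly GRCr8, 5′ to 3′ on the gene's strand, and capitals mark a match to a searched motif (none in Gdnf). Gdnf lies at chr2:58621077-58621326 on the plus strand, Bdnf (the most upstream of its 6 windows) at chr3:116619383-116619632 on the plus strand, and Cntf at chr1:219314536-219314785 on the minus strand.
Gdnf: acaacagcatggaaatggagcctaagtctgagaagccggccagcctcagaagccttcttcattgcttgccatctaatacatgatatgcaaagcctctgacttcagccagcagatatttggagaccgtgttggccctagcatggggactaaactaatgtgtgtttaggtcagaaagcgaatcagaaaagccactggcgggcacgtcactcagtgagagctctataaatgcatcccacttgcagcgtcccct
Bdnf: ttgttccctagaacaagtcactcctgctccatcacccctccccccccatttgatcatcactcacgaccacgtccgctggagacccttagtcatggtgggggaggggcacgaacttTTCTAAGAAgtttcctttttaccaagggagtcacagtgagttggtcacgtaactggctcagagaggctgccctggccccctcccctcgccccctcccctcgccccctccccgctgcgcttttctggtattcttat
Cntf: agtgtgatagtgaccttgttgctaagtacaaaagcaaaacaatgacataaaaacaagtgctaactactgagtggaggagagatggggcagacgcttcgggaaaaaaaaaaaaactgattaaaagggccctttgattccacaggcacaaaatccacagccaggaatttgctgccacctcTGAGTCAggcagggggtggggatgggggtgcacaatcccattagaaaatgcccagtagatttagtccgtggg
The motifs searched, on both strands, were TGAGTCA (AP-1), TGACGTCA (CRE) and TTCNNNGAA (STAT) in windows from 250 bases before to 50 after the start. AP-1 was found in 4.63% of all 33469 windows and in the window of 1 member gene, Cntf, 72 bases before its start. STAT was found in 8.87% of windows and in 1 member gene, Bdnf, 135 bases before its start. In the last 150 bases of each window, the AP-1 match of Cntf remained (2.2% of all windows), while STAT was in no member window (4.02% of all windows). CRE was found in 1.83% of windows and in no member window. Of the members, 6 had windows (13 in all), and these matches are descriptions of letters, not binding sites.

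**Figure D1:**
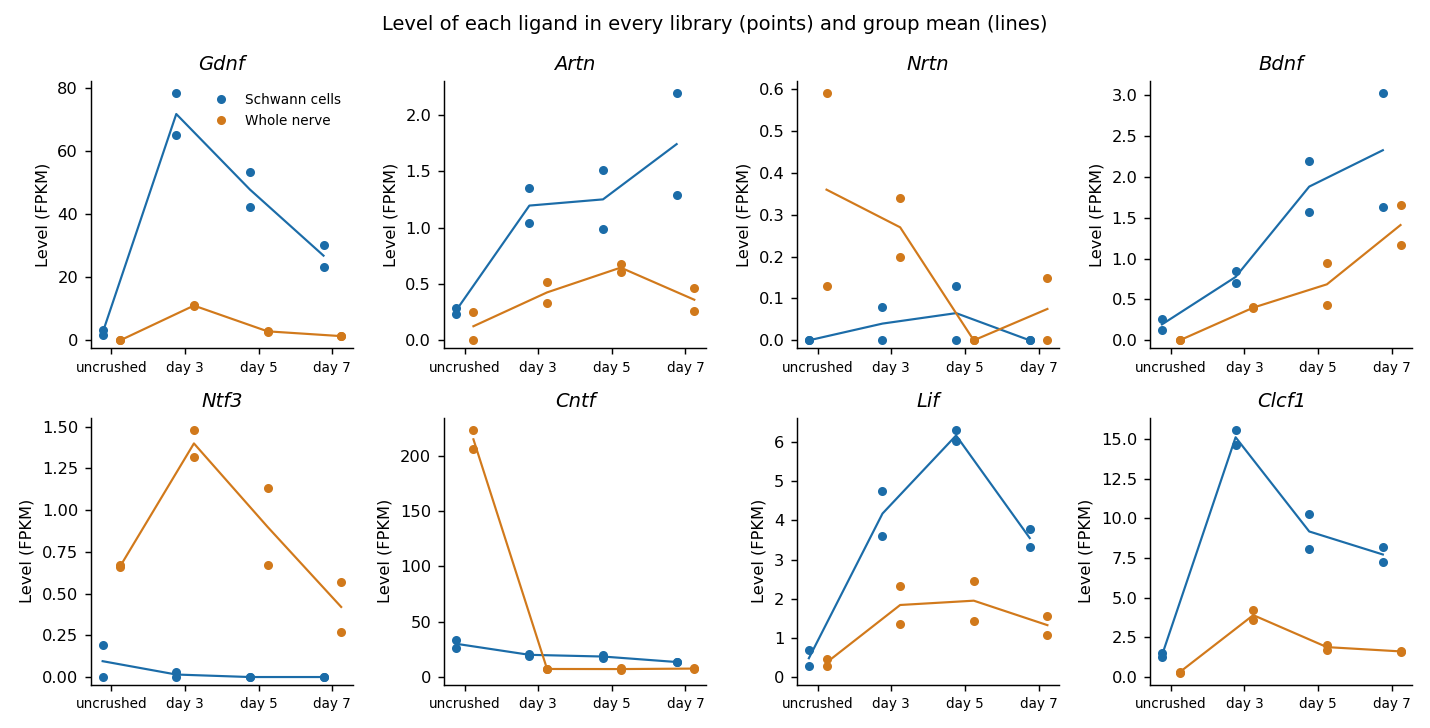
Level in FPKM (vertical axes, each from 0 to its own maximum) of the 8 ligands by time point, with a point for each of the 16 libraries and lines through the group means. In Schwann cells Gdnf reached 65.2 and 78.2 on day 3, and Cntf in whole nerve fell from 206 and 224 to 6.92 and 7.65.

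Gdnf, the survival factor of motor and sensory neurons, was the ligand with the highest FPKM in Schwann cells after crush. Its FPKM in uncrushed Schwann cells was 3.26 and 1.60 in replicates 1 and 2. It stood at 65.2 and 78.2 on day 3, at 42.3 and 53.2 on day 5 and at 23.4 and 30.3 on day 7. Every library after crush lay above both uncrushed libraries, and the libraries of day 3, day 5 and day 7 did not overlap. The count-based log2 fold change over uncrushed was 4.89 ± 0.264 (SE, n = 2 per group; edgeR quasi-likelihood, Benjamini-Hochberg adjusted p = 4.43e-07) on day 3, which is 29.7-fold. It was 4.22 ± 0.260 on day 5 and 3.37 ± 0.255 on day 7 (adjusted p = 1.29e-06 and 7.00e-06). From day 3 to day 7 Gdnf fell by 1.52 ± 0.218 on the log2 scale (edgeR adjusted p = 0.00110), while the steps from day 3 to 5 and from day 5 to 7 did not pass (adjusted p = 0.0705 and 0.0824). Both steps passed in the fit of all 16 libraries (0.0278 and 0.0251) and without the filter on low counts (5.86e-06 and 4.07e-09), with log2 changes between -0.86 and -0.66. The main fit gave -0.67 and -0.85, so these passes come from the estimated spread and the adjustment, not from a larger change. Without the filter, 1048 of 21888 genes were called from day 5 to 7, against 291 of 14961 in the main fit. In whole nerve 1 Gdnf fragment was counted in uncrushed replicate 1 and 0 in replicate 2, against 720 and 805 on day 3, 143 and 185 on day 5 and 65 and 64 on day 7. The corresponding FPKM was 10.8 and 11.2, then 2.6 and 3.1, then 1.33 and 1.34, again with no overlap between days. Against the single fragment of uncrushed nerve the ratio of counts was 813 (95% exact counting interval 146 to 32148) on day 3, 210 (37.5 to 8337) on day 5 and 101 (17.9 to 4033) on day 7. Whole nerve Gdnf then fell by 1.98 ± 0.159 (log2) from day 3 to 5 and by 1.04 ± 0.177 from day 5 to 7 (edgeR adjusted p = 1.15e-04 and 0.00742), the second call being lost without day 5 replicate 2 (0.0647).

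Clcf1 followed a course like that of Gdnf. Its FPKM in Schwann cells was 1.5 and 1.24 uncrushed, 15.6 and 14.6 on day 3, 10.3 and 8.08 on day 5, and 7.23 and 8.21 on day 7. The uncrushed libraries lay below every library after crush, and day 5 and day 7 overlapped. Clcf1 rose by 3.51 ± 0.199 (log2), 2.71 ± 0.202 and 2.44 ± 0.204 on days 3, 5 and 7 (edgeR adjusted p = 6.20e-07, 4.15e-06 and 1.26e-05), and was lower on day 5 than on day 3 by 0.79 ± 0.160 (adjusted p = 0.0126), a call lost without either day 3 library or day 5 replicate 2 (0.0704 to 0.0900). From day 3 to 7 Clcf1 fell in Schwann cells by 1.06 ± 0.163 (edgeR adjusted p = 0.00164). In whole nerve its FPKM was 0.270 and 0.340 uncrushed, 3.6 and 4.2 on day 3, 2.04 and 1.73 on day 5, and 1.57 and 1.66 on day 7. The whole nerve log2 fold changes were 3.28 ± 0.316, 2.23 ± 0.331 and 2.01 ± 0.340 (edgeR adjusted p = 1.51e-05, 4.47e-04 and 0.00130). It fell there by 1.05 ± 0.240 from day 3 to 5 and by 1.27 ± 0.247 from day 3 to 7 (adjusted p = 0.0206 and 0.00510), the former lost with DESeq2 (0.0995) and without any 1 of its 4 libraries (0.0783 to 0.169), the latter without day 3 replicate 2 (0.0560). In the GRCr8 annotation Clcf1 lies inside the record of Rad9a, named after its values had been seen, and the use of strand in counting is not given in the sources used here. Rad9a rose by 0.68 ± 0.15 in Schwann cells and 1.06 ± 0.168 in whole nerve on day 3 (edgeR adjusted p = 0.00395 and 5.01e-04). On days 5 and 7 Rad9a gave 0.23 ± 0.152 and 0.36 ± 0.152 in Schwann cells (edgeR adjusted p = 0.216 and 0.0801). In whole nerve Rad9a gave 0.47 ± 0.171 and 0.56 ± 0.172 (edgeR adjusted p = 0.0535 and 0.0302), called on day 7 only. Clcf1 was called on both days in both tissues, and whether these genes share reads was not tested.

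Lif, a cytokine that acts on neurons and on immune cells, also rose in both tissues. In Schwann cells its FPKM was 0.690 and 0.270 uncrushed, 3.61 and 4.74 on day 3, 6.02 and 6.32 on day 5, and 3.33 and 3.77 on day 7. All libraries after crush lay above the uncrushed ones, and day 5 held the highest values. The log2 fold changes were 3.60 ± 0.272, 4.11 ± 0.270 and 3.27 ± 0.279 (edgeR adjusted p = 3.99e-06, 1.91e-06 and 1.42e-05), and no step between days passed the test. In whole nerve the FPKM was 0.290 and 0.450 uncrushed, 1.36 and 2.32 on day 3, 1.44 and 2.46 on day 5, and 1.08 and 1.57 on day 7, with the 3 days overlapping. Lif rose there by 2.20 ± 0.474, 2.14 ± 0.479 and 1.65 ± 0.497 (edgeR adjusted p = 0.00350, 0.00552 and 0.0295). The day 5 and day 7 calls in whole nerve rest on 5 to 55 counts per library and were lost without uncrushed replicate 1 (adjusted p = 0.0549 and 0.210), and the day 7 call also without either day 7 library (0.0736 and 0.0819) or with DESeq2 (0.0556).

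Bdnf, the ligand of Ntrk2, was higher than uncrushed from day 3 on in both tissues. Its FPKM in Schwann cells was 0.260 and 0.130 uncrushed, 0.700 and 0.850 on day 3, 1.57 and 2.19 on day 5, and 1.63 and 3.02 on day 7. Day 5 and day 7 overlapped, and both lay above day 3. The log2 fold changes were 2.08 ± 0.451, 3.26 ± 0.435 and 3.50 ± 0.435 (edgeR adjusted p = 0.00353, 1.90e-04 and 1.60e-04), and day 7 exceeded day 3 by 1.41 ± 0.349 (adjusted p = 0.0185), which was lost without either day 3 library or day 7 replicate 2 (0.0636 to 0.134). In whole nerve no Bdnf fragment was counted in either uncrushed library, against 28 and 28 on day 3, 25 and 58 on day 5, and 81 and 58 on day 7. Taking 3 counts over the group as the most that a count of 0 allows, Bdnf in whole nerve was at least 9.96-fold higher on day 3, at least 17.8-fold on day 5 and at least 36.4-fold on day 7 than in uncrushed nerve. Between day 3 and day 7 it rose by 1.84 ± 0.406 on the log2 scale (edgeR adjusted p = 0.0119), again lost without either day 3 library or without day 7 replicate 1 (0.0693 to 0.0897).

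Cntf fell in both tissues. In Schwann cells its FPKM was 33.6 and 26.6 uncrushed, 20.7 and 19.5 on day 3, 16.9 and 20.2 on day 5, and 13.5 and 13.6 on day 7. The uncrushed libraries lay above all others, and day 3 and day 5 overlapped. Log2 fold changes were -0.54 ± 0.140, -0.74 ± 0.141 and -1.20 ± 0.145 (edgeR adjusted p = 0.00930, 0.00174 and 1.38e-04). The day 3 call was lost without uncrushed replicate 1 (log2 fold change -0.39, adjusted p = 0.0693) and without day 3 replicate 2 (-0.50, adjusted p = 0.0685). The further fall from day 3 to 7, of 0.66 ± 0.145 (edgeR adjusted p = 0.0108), was lost without any 1 of its 4 libraries (0.0514 to 0.0707). In whole nerve the FPKM was 206 and 224 uncrushed, 6.92 and 7.65 on day 3, 7.84 and 6.57 on day 5, and 7.94 and 7.33 on day 7, so the 3 days overlapped and lay far below the uncrushed libraries. Here Cntf fell by 5.29 ± 0.121, 5.31 ± 0.122 and 5.22 ± 0.123 on the log2 scale (edgeR adjusted p = 1.43e-09, 1.55e-09 and 5.26e-09), or 39.1-fold on day 3. The myelin gene Mbp fell by 4.87 ± 0.100 in whole nerve on that day and gave -2.05 ± 0.136 in Schwann cells, and the part of this shift in the fall of Cntf was not tested. Zfp91, a neighbour of Cntf in the GRCr8 annotation that was named after its values had been seen, changed by -0.79 ± 0.0852 in whole nerve on day 3 (adjusted p = 3.47e-05) and by -0.04 ± 0.0935 in Schwann cells (adjusted p = 0.766).

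Artn, Ntf3 and Nrtn had few counts in most libraries. Artn FPKM in Schwann cells was 0.230 and 0.290 uncrushed, 1.35 and 1.04 on day 3, 0.990 and 1.51 on day 5, and 1.29 and 2.19 on day 7, with the uncrushed libraries below all others. The counts, 14 and 14 uncrushed and 35 to 60 afterwards, gave log2 fold changes of 1.26 ± 0.376, 0.97 ± 0.381 and 1.32 ± 0.380 (edgeR adjusted p = 0.0183, 0.0534 and 0.0176). Day 3 and day 7 calls were lost with DESeq2 (adjusted p = 0.0749 and 0.0708), in the fit of all 16 libraries (0.0616 and 0.0570) and without either uncrushed library, day 3 replicate 1 or day 7 replicate 2 (0.0527 to 0.112). In whole nerve Artn had 0 and 4 counts uncrushed and 8 to 14 later, and the log2 fold changes of 1.37 ± 0.989, 1.80 ± 0.971 and 1.70 ± 0.994 did not pass (edgeR adjusted p = 0.286, 0.173 and 0.228), but did on all 3 days without uncrushed replicate 2, which leaves a reference of 0 counts. Ntf3 in Schwann cells had 3 and 0 counts uncrushed, 0 and 1 on day 3 and 0 in the 4 later libraries, too few to test. In whole nerve it had 12 and 8 counts uncrushed, 28 and 34 on day 3, 20 and 13 on day 5, and 9 and 4 on day 7. Only day 7 against day 3 passed, by -1.70 ± 0.532 on the log2 scale (edgeR adjusted p = 0.0460), a call lost with DESeq2 (0.148), with upper quartile normalization (0.0507), in the fit of 16 libraries (0.116) and without any 1 of its 4 libraries (0.0629 to 0.229). Nrtn had at most 3 counts in any library and 12 in all 16, and was not tested.

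**Figure D2:**
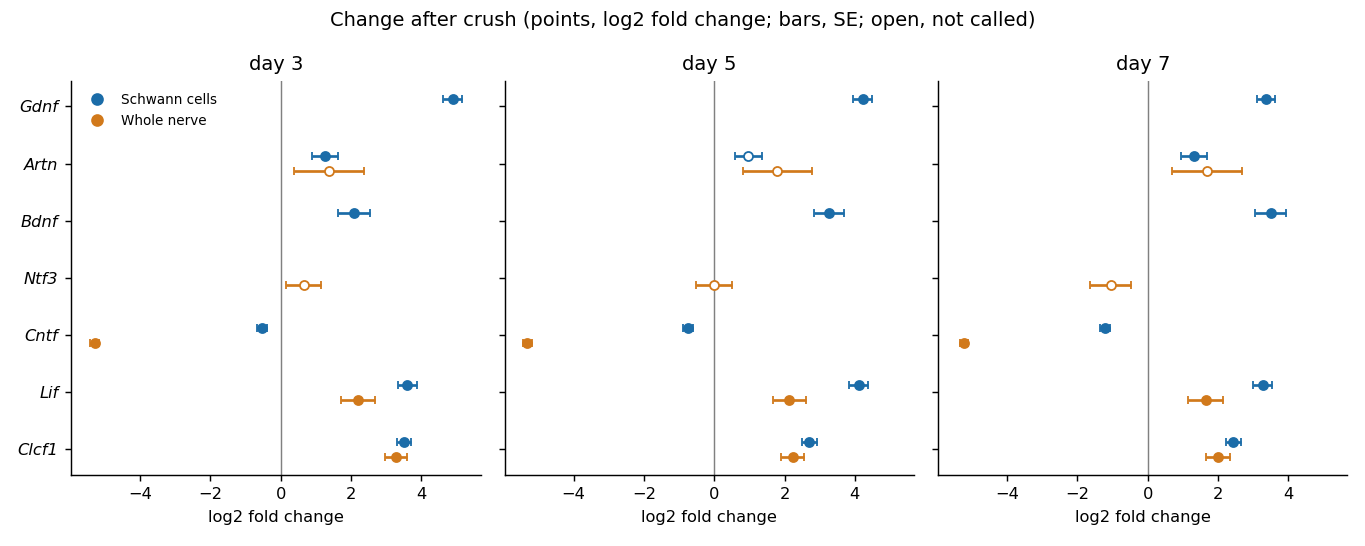
Log2 fold change against uncrushed (horizontal axis; points with SE bars; open points not called) of 7 ligands on days 3, 5 and 7 in Schwann cells and whole nerve. Points are left out where a group held 3 counts or fewer. In whole nerve Cntf lay at -5.29, -5.31 and -5.22.

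Of the 6 members tested in Schwann cells, 5 were called higher and 1 lower on day 3, where 26.9% of the 14961 genes tested were called higher and 25.7% lower. On day 5 the members gave 4 higher and 1 lower (all genes 29% and 25.6%), and on day 7 they gave 5 and 1 (25% and 21.9%). Without replicate 2 of day 3, the library with more macrophage and mast cell marker RNA, the day 3 counts were 5 and 0. The 3 days share their uncrushed libraries. The median log2 fold change of the tested members was 2.80, 2.99 and 2.86, against 0.00, 0.06 and 0.06 for all genes. In whole nerve 4 of 7 tested members were higher and 1 lower at every day, where 23.1% and 22.5% of genes were called higher and lower on day 3, 18.9% and 19.5% on day 5 and 15.4% and 15.9% on day 7. The 4 higher were Gdnf, Bdnf, Lif and Clcf1, with 0 to 8 counts in each uncrushed whole nerve library. They passed the filter on low counts only through libraries after crush. Bdnf (13 and 6 counts uncrushed) and Lif (11 and 7) did so in Schwann cells too. Genes that pass in this way are likely to be called higher, so the counts and medians of the members are descriptions. Macrophage markers moved with the whole nerve comparisons: 8, 8 and 7 of the 8 were called higher on days 3, 5 and 7 (median log2 fold changes 1.85, 1.04 and 1.00), with summed FPKM of 164 and 147 uncrushed and 733 and 743 on day 3, and their part in the members' changes was not tested. Between days in Schwann cells, 1 of 6 members differed from day 3 to 5 (12.5% of genes), 0 of 6 from day 5 to 7 (1.95%) and 4 of 6 from day 3 to 7 (21%). The count of 0 from day 5 to 7 is that of edgeR fitted to the 8 Schwann cell libraries and of DESeq2, and 3 of the 6 had an unadjusted p below 0.05. With edgeR it was 1 (Gdnf) in the fit of all 16 libraries, where 472 of 16829 genes were called, and 2 (Gdnf and Lif, adjusted p = 4.07e-09 and 0.0140) without the filter, where 1048 of 21888 were. From day 3 to 7 the count of 4 fell to 2 without day 3 replicate 1, day 3 replicate 2 or day 7 replicate 2, each of which ended the calls of Bdnf and Cntf. In whole nerve the counts were 2 of 7 from day 3 to 5 (11.5% of genes), 1 of 7 from day 5 to 7 (7.4%) and 4 of 7 from day 3 to 7 (21.2%). Without any 1 library the members lower in whole nerve went from 2 to 1 between days 3 and 5, which DESeq2 also gave, while leaving out 1 library gave 0 to 1 in place of 1 between days 5 and 7 and 1 to 2 in place of 3 between days 3 and 7. Immediate-early genes, which are induced fast by tissue handling, moved with the Schwann cell comparisons: all 8 listed were lower after crush at each day, with summed FPKM of 4279 and 4875 in the uncrushed libraries and 1043 to 1406 later. Their part in the members' changes was not tested.

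**Figure D3:**
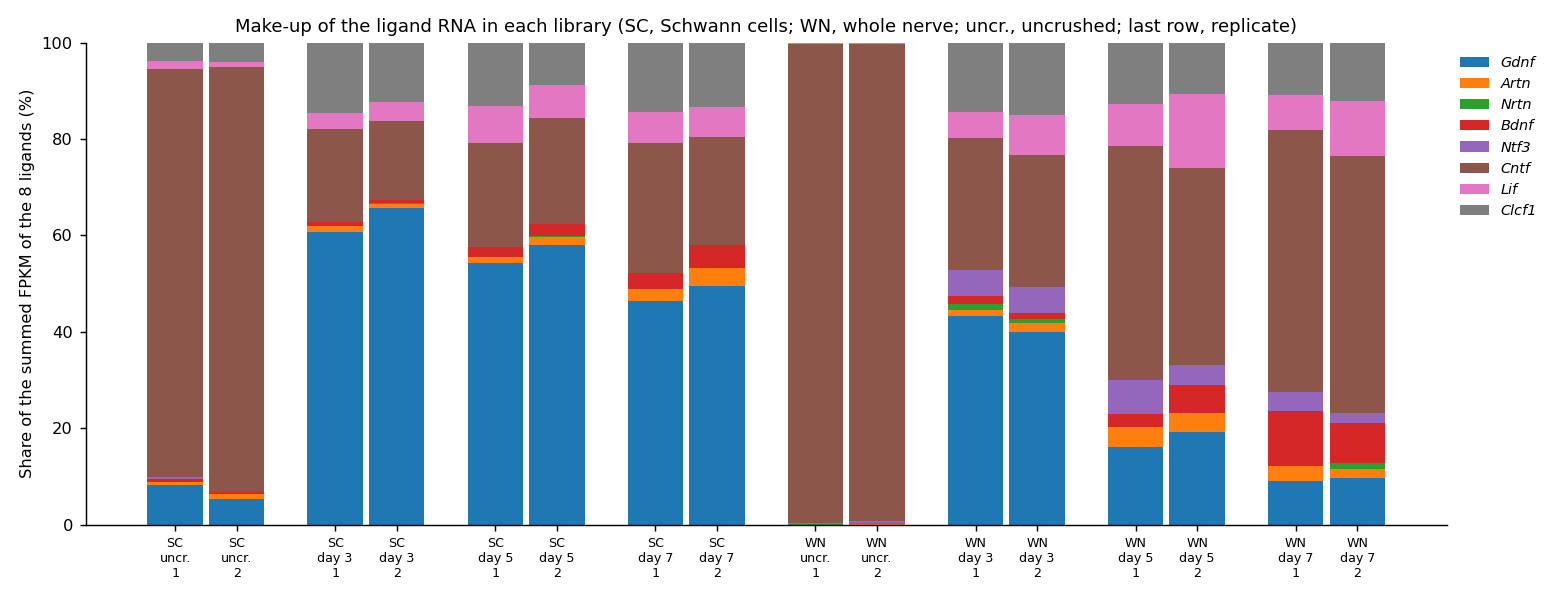
Share (percent, vertical axis) of the summed FPKM of the 8 ligands taken by each ligand in each of the 16 libraries. Cntf took 99.3% and 99.0% in uncrushed whole nerve, and Gdnf took 60.8% and 65.7% in Schwann cells on day 3.

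The make-up of the ligand RNA changed with these shifts. Cntf made up 84.6% and 88.3% of the summed FPKM of the 8 ligands in uncrushed Schwann cells, and Gdnf 8.20% and 5.31%. By day 3 Gdnf held 60.8% and 65.7%, Cntf 19.3% and 16.3% and Clcf1 14.5% and 12.3%. In whole nerve Cntf fell from 99.3% and 99.0% to 27.5% and 27.4% on day 3 and held 54.3% and 53.3% on day 7, when Bdnf had reached 11.4% and 8.44%. Summed FPKM in Schwann cells was 39.8 and 30.1 uncrushed, 107 and 119 on day 3, 78.0 and 91.7 on day 5, and 50.4 and 61.1 on day 7. The whole nerve sums were 208 and 226 uncrushed, 25.1 and 27.9 on day 3, 16.2 and 16.1 on day 5, and 14.6 and 13.7 on day 7.

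Purified cells were compared with whole nerve to ask in which fraction each ligand lay. In uncrushed nerve Cntf was lower in Schwann cells by 3.15 ± 0.123 on the log2 scale (edgeR adjusted p = 8.48e-11), and after crush it was higher there by 1.5 ± 0.131, 1.30 ± 0.136 and 0.77 ± 0.142 (adjusted p = 2.36e-07, 1.72e-06 and 4.16e-04). Among the 10 Schwann cell markers in uncrushed nerve, 7 were higher and 3 lower in Schwann cells, among the latter Mbp (log2 difference -2.07 ± 0.121) and S100b (-2.27 ± 0.126). All 8 immediate-early genes were higher in the purified cells at that time, by a median of 6.10 on the log2 scale. After crush, 10, 10 and 8 of those 10 markers had higher values in the purified cells by the same test on days 3, 5 and 7 (medians 1.26, 0.95 and 0.99), as were 7, 8 and 7 of the 8 immediate-early genes (medians 2.25, 2.85 and 3.03). The part of either list in the differences of the ligands was not tested. Gdnf in uncrushed Schwann cells was 192 times (95% exact counting interval 34.1 to 7603) its level in whole nerve, and after crush the log2 difference was 2.75 ± 0.197, 4.05 ± 0.219 and 4.24 ± 0.239 (adjusted p = 2.88e-08, 1.77e-09 and 3.01e-09). Clcf1 was higher in Schwann cells at every time point, by 1.87 ± 0.311, 2.00 ± 0.174, 2.23 ± 0.189 and 2.19 ± 0.198. Lif gave 0.10 ± 0.507 in uncrushed nerve (edgeR adjusted p = 0.871) and was higher in Schwann cells by 1.38 ± 0.282, 1.94 ± 0.287 and 1.60 ± 0.309 on days 3, 5 and 7.

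Artn FPKM in uncrushed nerve overlapped between the tissues, with 0.230 and 0.290 in Schwann cells and 0 and 0.250 in whole nerve. On counts the test called Artn higher in Schwann cells at each time point, by 2.38 ± 0.772, 2.15 ± 0.528, 1.41 ± 0.526 and 1.86 ± 0.544 on the log2 scale, uncrushed and on days 3, 5 and 7 (edgeR adjusted p = 0.0148, 0.00306, 0.0364 and 0.0105). Leaving out 1 library ended 3 of these calls: uncrushed without whole nerve replicate 1 (adjusted p = 0.162), day 5 without any of its 4 libraries (0.0924 to 0.131) and day 7 without replicate 2 of either tissue (0.0709 and 0.0764). FPKM is also divided by a length that is estimated per library, and for Artn on day 3 the ratio of mean levels was 2.81 in FPKM and 4.52 in CPM (counts scaled to the library total). Bdnf was at least 5.02-fold higher in uncrushed Schwann cells than in whole nerve, then higher by 1.05 ± 0.419 and 1.43 ± 0.393 on days 3 and 5 (edgeR adjusted p = 0.0454 and 0.00808), with 0.62 ± 0.378 on day 7 (adjusted p = 0.193). The day 3 difference of Bdnf was lost with DESeq2 (adjusted p = 0.0565) and without any 1 of its 4 libraries (0.0561 to 0.210), and that of day 5 without Schwann cell replicate 2 (0.0637) or whole nerve replicate 1 (0.0942). Ntf3 was the member lower in Schwann cells throughout: 8.42-fold (95% exact counting interval 2.50 to 44.2) uncrushed, 66.8-fold (11.6 to 2680) on day 3, and at least 12.1-fold and 5.07-fold on days 5 and 7. The 8 macrophage and 5 endothelial markers were lower in Schwann cells at all 4 time points, as were 5 of 6 fibroblast markers, and their part in the Ntf3 difference was not tested. Its uncrushed call was lost without Schwann cell replicate 2 (edgeR adjusted p = 0.0810). Members called higher in Schwann cells numbered 4, 6, 6 and 5 of 7 tested at the 4 time points and members called lower 2, 1, 1 and 1, where all genes gave 29.1% and 35.3% uncrushed, 24.5% and 32.8% on day 3, 23.2% and 28.4% on day 5, and 22.4% and 28.7% on day 7. Upper quartile normalization turned the balance over all genes, from 3907 higher and 4787 lower to 4930 and 4105 on day 5 and from 3763 and 4825 to 4546 and 4299 on day 7.

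**Figure D4:**
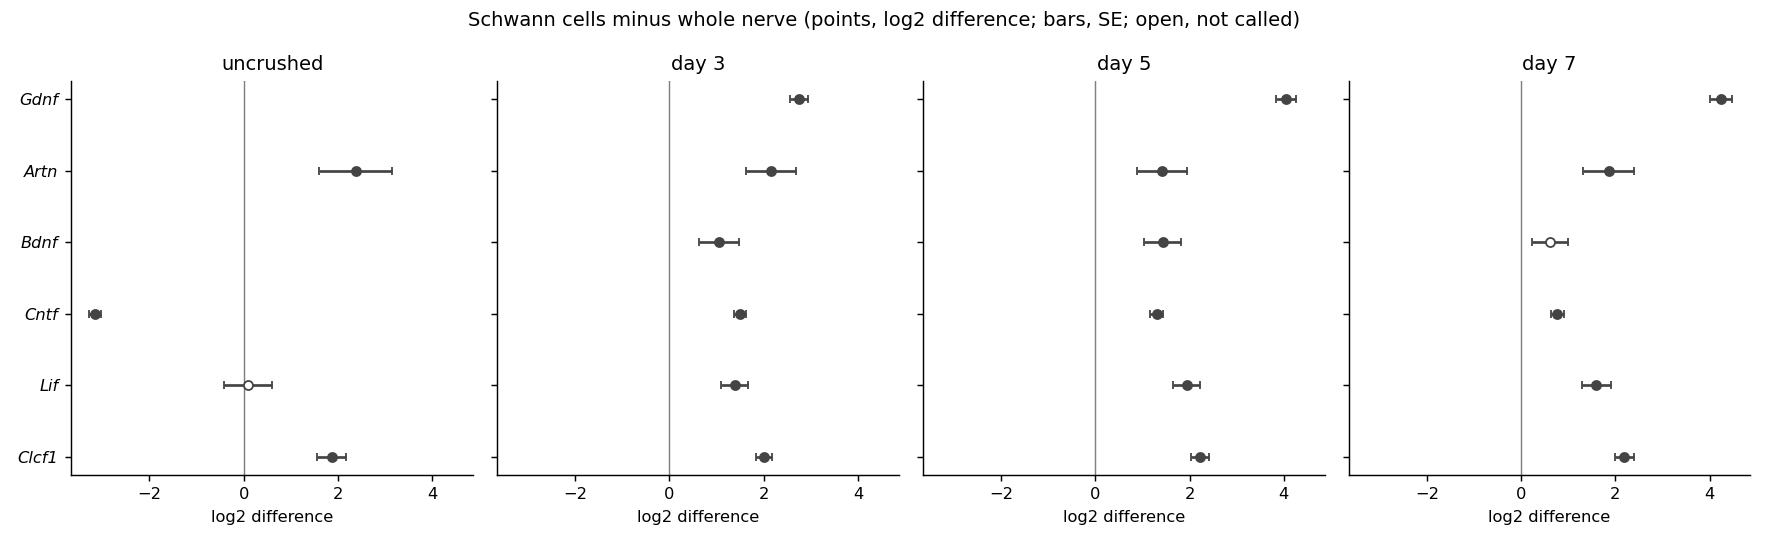
Log2 difference of Schwann cells minus whole nerve (horizontal axis; points with SE bars; open points not called) for 6 ligands at each time point, left out where a group held 3 counts or fewer. Cntf lay at -3.15 in uncrushed nerve and at 1.5 on day 3.

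Whether crush changed a ligand by a different factor in the tissues was tested in the fit of all 16 libraries. The change of Cntf differed by 4.64 ± 0.178, 4.45 ± 0.181 and 3.91 ± 0.185 on the log2 scale on days 3, 5 and 7 (edgeR adjusted p = 2.40e-09, 3.44e-09 and 1.92e-08), the fall being larger in whole nerve. Lif rose more in Schwann cells on day 5, by 1.83 ± 0.599 (adjusted p = 0.0345), with 1.28 ± 0.593 and 1.5 ± 0.608 on days 3 and 7 (adjusted p = 0.133 and 0.0860). The day 5 call was lost without any 1 of 7 of its 8 libraries (adjusted p = 0.0511 to 0.309). For Gdnf and Bdnf the whole nerve change starts from 1 and 0 counts, so no size is given, and the adjusted p was 0.00275, 0.0418 and 0.0642 for Gdnf and 0.0457, 0.0636 and 0.0264 for Bdnf, with the larger rise in whole nerve. Losses without 1 library affected Gdnf on day 5 (5 of 8 libraries, adjusted p = 0.0615 to 0.170) and Bdnf on day 3 (7 of 8, 0.0537 to 0.192) and day 7 (4 of 8, 0.0528 to 0.130). Clcf1 gave 0.12 ± 0.419, 0.36 ± 0.401 and 0.32 ± 0.407 (edgeR adjusted p = 0.926, 0.629 and 0.711). Of 7 members tested, 3, 3 and 2 differed on days 3, 5 and 7, where 26%, 27.5% and 26% of all genes did. Immediate-early genes moved with the same contrast: their change after crush was called lower in Schwann cells for 8, 7 and 7 of 8 on days 3, 5 and 7, with medians of -3.85, -3.40 and -2.99, and their part in these differences was not tested.

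Receptors of these ligands moved in both directions. Of 14 receptor genes tested in Schwann cells on day 3, 4 were higher and 8 lower, and in whole nerve 5 were higher and 7 lower. Of all genes, 26.9% were called higher and 25.7% lower in Schwann cells and 23.1% and 22.5% in whole nerve, so the share of receptors called higher in Schwann cells was near that of all genes. On days 5 and 7 the counts were 5 higher and 8 lower in Schwann cells on both days, and 4 and 6, then 4 and 3, in whole nerve. All genes gave 29% and 25.6%, then 25% and 21.9%, in Schwann cells and 18.9% and 19.5%, then 15.4% and 15.9%, in whole nerve. The values that follow are those of day 3. Gfra1 rose by 2.25 ± 0.121 in Schwann cells and 2.08 ± 0.113 in whole nerve (edgeR adjusted p = 4.37e-07 and 2.35e-07), and Ngfr by 4.63 ± 0.198 and 4.81 ± 0.240. Mean Gfra1 FPKM went from 83.0 to 439 in Schwann cells, whereas Ret, the kinase GDNF signals through, had at most 5 counts in any Schwann cell library and fell in whole nerve by 2.57 ± 0.224. The Trk receptor genes for BDNF and for the product of Ntf3 fell in Schwann cells, Ntrk2 by 3.17 ± 0.157 and Ntrk3 by 2.90 ± 0.142. Counts per gene do not separate transcripts with the kinase part from those without it. The receptors Gfra2, Gfra3, Cntfr and Lifr fell by 1.91 ± 0.157, 2.08 ± 0.384, 1.83 ± 0.274 and 1.33 ± 0.141 in Schwann cells. By day 7 Gfra3 was no longer called (log2 fold change -0.50 ± 0.357, edgeR adjusted p = 0.276). Il6st, the subunit shared by the cytokine receptors, gave -0.02 ± 0.112 in Schwann cells (adjusted p = 0.897) and rose by 0.65 ± 0.0936 in whole nerve. On day 7 Il6st was called lower in Schwann cells (log2 fold change -0.48 ± 0.113, edgeR adjusted p = 0.00661). Ncam1, an alternative receptor for GDNF, fell by 3.58 ± 0.141 and the interleukin-6 receptor Il6r rose by 2.63 ± 0.267 in Schwann cells.

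**Figure D5:**
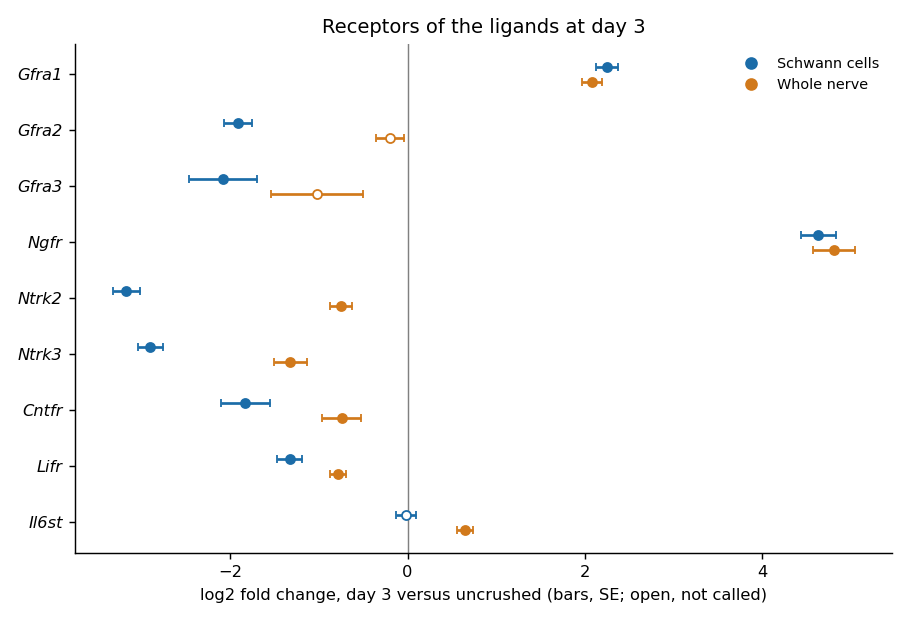
Log2 fold change on day 3 against uncrushed (horizontal axis; points with SE bars; open points not called) of 9 receptor genes of the ligands in Schwann cells and whole nerve. Gfra1 rose by 2.25 and 2.08, and Ntrk2 fell by 3.17 and 0.75.

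Other ligands were followed from a list of 14, of which 10 were tested in Schwann cells on day 3, with 3 higher and 2 lower (all genes 26.9% and 25.7%). Midkine (Mdk) rose by 3.73 ± 0.195 in Schwann cells, and Gdf15 and Vegfa fell by 3.80 ± 0.833 and 1.36 ± 0.144. Ntf4 had at most 3 counts in any library and Pspn, another GDNF family ligand, at most 5. Of 9 genes tested in a list of response genes, 3 rose and 5 fell in Schwann cells on day 3, while 7 rose and 0 fell in whole nerve (all genes 23.1% and 22.5%). Socs3, the feedback inhibitor induced by cytokines of this family, fell by 3.14 ± 0.118 in Schwann cells and rose by 2.70 ± 0.259 in whole nerve (edgeR adjusted p = 6.43e-08 and 1.49e-05). Of the feedback inhibitors of receptor kinase signalling, Spry4 fell by 1.37 ± 0.273 in Schwann cells and Spry2 rose by 0.71 ± 0.168 (adjusted p = 0.00216 and 0.00559). Spry2, Jun and Stat3 were named after their values were seen. Jun fell by 0.77 ± 0.0971 in Schwann cells and rose by 1.95 ± 0.123 in whole nerve, and Stat3 fell by 0.97 ± 0.109 and rose by 0.64 ± 0.115. In uncrushed nerve Socs3, Jun and Stat3 were higher in purified cells than in whole nerve, by 7.37 ± 0.214, 5.02 ± 0.131 and 2.56 ± 0.126 (log2). Their falls in Schwann cells start from these levels. Of the 9 response genes, 7 were higher and 2 lower in that comparison (all genes 29.1% and 35.3%). The 8 immediate-early genes fell in Schwann cells on day 3 too, while 4 of them rose in whole nerve, and their part in these changes was not tested. Shh and Sox2 rose by 5.36 ± 0.460 and 1.16 ± 0.160 in Schwann cells, Shh from 3 and 1 counts.

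The genes whose log2 CPM ran most like each member over the 16 libraries were named by Pearson r, as a description of libraries that share depth and tissue. For Gdnf these were Uggt1 (r = 0.987), Cdk5rap2 (0.986) and Ppp2r1b (0.982), and for Clcf1 they were Dusp10 (0.989), Psme4 (0.987) and Nedd4l (0.984). Cntf ran most like Kif13b (0.988), Ccser2 (0.984) and Sptlc2 (0.968). For Lif the nearest were Sorcs2 (0.977), Nudt4 (0.972) and Plat (0.970), for Bdnf Cela1 (0.955), Stac2 (0.951) and Tfap2c (0.95), for Ntf3 Ehd1 (0.962), Enpep (0.960) and Emilin2 (0.960), and for Artn LOC100910821 (0.953), Pdlim4 (0.944) and Taf5l (0.941). Between members, Gdnf and Clcf1 gave r = 0.970 and Lif and Clcf1 0.908. The authors' module table places Gdnf and Clcf1 in module 8 and Lif in module 10, among 10 modules of 6274 genes.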

How the data were processed

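RNA from 16 samples of immunopanned Schwann cells or whole sciatic nerve was sequenced, and samples were grouped by the tissue, time point and replicate of their labels. Per the study's methods the authors amplified the cDNA, aligned reads with STAR to Rnor_6.0 and counted with RSEM, which gave the deposited expected counts for each gene. The deposited FPKM was made by the authors in the same step and is scaled to gene length and library total. The deposited module table was used only for module numbers, and its 8 other columns of per-sample values were left unused. No molecular identifiers were used, so intervals and floors cover counting error only.

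For tests, these values were rounded, scaled by TMM and filtered with filterByExpr, and edgeR 4.0.16 (R 4.3.3) fitted its quasi-likelihood model, with Benjamini-Hochberg adjustment over all genes tested at 0.05. Each tissue's 8 libraries were fitted together (14961 genes for Schwann cells, 15831 for whole nerve), and all 16 (16829 genes) for tissue differences. Standard errors are the log2 fold change over the square root of F. Where a group held 3 counts or fewer, a ratio of counts with an exact 95% interval is given, or, at 0 counts, a bound from 3 counts over the group. The test was run on simulated data first. The study does not describe the replicate number as a block, so no block was used. Within each tissue, same-numbered replicates of different time points did not deviate together (correlations -0.04 to 0.076). Whether they did so between the tissues was not checked. Tables were made with pandas 2.3.3, numpy 2.4.6 and scipy 1.17.1, and figures with matplotlib 3.10.9. Promoters came from RefSeq windows of the assembly GRCr8. Named genes were all members, the partners of each ligand, the 2 largest and 2 smallest changes of each list called in Schwann cells at day 3, and the 3 genes most like each member. Alternatives were DESeq2 1.42.0, upper quartile normalization, no filter, the replicate block, 1 fit of all libraries, leaving out each library, CPM for FPKM and the last 150 bases of each promoter window. Members and lists were chosen with earlier results of these data known. Some genes covered by the naming rule are not reported here.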

Additional observations from a re-analysis of the deposited data

Results flagged for a closer look

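The change after crush differed between Schwann cells and whole nerve for 8 of 21 pairs of ligand and day (7 ligands on 3 days), tested as an interaction in the edgeR fit of all 16 libraries with Benjamini-Hochberg adjustment. Of all genes, 26%, 27.5% and 26% differed on days 3, 5 and 7. Of 8 immediate-early genes, 8, 7 and 7 had a lower change after crush in Schwann cells by the same test, with medians of -3.85, -3.40 and -2.99, and their part was not tested. Cntf differed at day 3 (adjusted p = 2.40e-09), day 5 (3.44e-09) and day 7 (1.92e-08), with a fall of 39.1-fold in whole nerve and 1.45-fold in Schwann cells at day 3. Gdnf differed at day 3 (adjusted p = 0.00275) and day 5 (0.0418), its whole nerve values starting from 1 count, and the day 5 call was lost with upper quartile normalization (0.0503) and without any of 5 of the 8 libraries (0.0615 to 0.170). Bdnf differed at day 3 (adjusted p = 0.0457) and day 7 (0.0264), its whole nerve values starting from 0 counts, with losses without any of 7 (0.0537 to 0.192) and any of 4 (0.0528 to 0.130) of the 8 libraries. Lif differed at day 5 (adjusted p = 0.0345), which was lost without any of 7 of the 8 libraries (0.0511 to 0.309).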

How the results depend on the processing

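Over 127 results on single members, DESeq2 (124 with a value) kept direction and call in 117, upper quartile normalization in 124, no filter on low counts in 119 and the fit of all 16 libraries in 71 of 78. Leaving out 1 library, with the remaining library assumed to vary like the other groups, kept 491 of 592. The replicate block, whose numbers are not described as pairing the samples, changed 1 of 127. Bdnf in Schwann cells at day 5 against day 3 became called (log2 fold change 1.18, edgeR adjusted p = 0.0467). That raised the count of higher members there from 0 to 1 (777 of 14961 genes). Upper quartile normalization shifted the median of all genes by 0.135 (day 5) and 0.101 (day 7) in the comparison of tissues. Where the cause of a change is not shown by its construction, the cause was not tested.

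Without the filter, the count of members in Schwann cells at day 5 against day 3 was 1 higher and 2 lower (all genes 1301 and 1438 of 21888), at day 7 against day 5 it was 2 lower (477 of 21888), in whole nerve at day 7 against day 5 it was 1 higher (1101 of 24330), and for the difference of injury effects it was 2 lower at days 5 and 7 (2623 and 2695 of 25158). In the fit of all 16 libraries 2 members were lower in Schwann cells at day 5 against day 3 (1173 of 16829 genes) and 1 at day 7 against day 5 (222 of 16829). DESeq2 left 1 lower in whole nerve at day 5 against day 3 (786 genes lower), and upper quartile normalization left 0 lower for the difference of effects at day 5 (2244 of 16829), where Gdnf moved to an adjusted p of 0.0503. Leaving out 1 library, the count of lower members ranged from 0 to 1 in Schwann cells at day 3 against uncrushed and at day 5 against day 3, and in whole nerve at day 7 against day 5. It was 1 in whole nerve at day 5 against day 3, ranged from 1 to 2 there at day 7 against day 3 and in Schwann cells against whole nerve uncrushed, and for the difference of effects from 1 to 2 at day 3 and from 0 to 2 at days 5 and 7. The count of higher members ranged from 0 to 1 at day 7 against day 3 in both tissues, and from 1 to 2 for the difference of effects at each day.

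Directions that turned were of values not called. Ntf3 in whole nerve at day 5 against uncrushed (-0.00) became 0.01 with upper quartile normalization, 0.03 without the filter, 0.10 in the fit of 16 libraries and 0.02 with DESeq2, and ranged from -0.41 to 0.34 without 1 library. Cntf in whole nerve at day 5 against day 3 became 0.00 in the fit of 16 libraries and ranged from -0.15 to 0.09, from -0.03 to 0.21 at day 7 against day 5 and from -0.00 to 0.12 at day 7 against day 3. Without 1 library, Bdnf in Schwann cells at day 7 against day 5 ranged from -0.26 to 0.63, Artn at day 7 against day 3 from -0.28 to 0.36, Lif in whole nerve at day 5 against day 3 from -0.42 to 0.42, Artn in whole nerve at day 7 against day 5 from -0.36 to 0.12 and Lif between uncrushed tissues from -0.48 to 0.75. For the difference of effects, Artn ranged from -4.97 to 1.01, from -5.72 to 0.27 and from -5.29 to 0.70 at days 3, 5 and 7, Clcf1 from -0.01 to 0.33 at day 3, and Ntf3 had an adjusted p from 0.112 to 0.755 at day 3 and from 0.165 to 1 at day 7. In CPM the uncrushed ratio of Cntf, whole nerve over Schwann cells, was 8.87 in place of 7.14. Groups with few counts (Nrtn, Ntf3, Artn and uncrushed Bdnf) limit what depth can show.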
